A study of Mus musculus with 6 samples.

Results

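The PLEKHA family takes its name from the pleckstrin homology (PH) domain, and 8 of its genes, Plekha1 to Plekha8, were followed across the 6 libraries of the series. They were found by matching the Ensembl identifiers of the deposited table to mouse symbols in GENCODE M21, which placed each of the 8 symbols on 1 row of 34745. All 8 had enough reads to enter the test across 14037 genes. The set was chosen by the measured difference of Plekha6 between the genotypes, one of the 14 genes that passed in that test, and the other 7 genes were added by name as its paralogs. The difference of Plekha6 is therefore given as a description, no p-value of a member is printed for this contrast, counts of members past a threshold stand only beside those of all genes, and the choice of members had no numerical threshold.

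The libraries were made from messenger RNA of alveolar macrophages washed out of mouse lungs 7 days after bleomycin at 5 mg per kg, which was given into the trachea and injures the lung. There were 3 libraries from wild-type (WT) mice and 3 from Phlpp1-deficient (KO) mice, so both genotypes had received the drug, and saline-treated animals were not analysed here. The labels give neither the strain, age and sex of the animals nor the design of the Phlpp1 allele, and they do not say whether a library is 1 animal or a pool. Library totals ran from 13340861 to 15843764 counts. Phlpp1, the PH-domain phosphatase that acts on the kinase Akt, was at 30.3, 25.3 and 28.5 CPM (counts scaled to a common library size) in WT 1, 2 and 3. In KO 1, 2 and 3 it was at 23.2, 21.6 and 17.7 CPM, so its reads were lower in all KO libraries but present (log2 difference -0.43, SE 0.16, edgeR adjusted p = 0.62). The deleted part of the gene is not given, so this checks the genotype labels only weakly. Its relative Phlpp2 was at 19.4 ± 2.78 CPM in WT and 18.1 ± 4.51 CPM in KO (SD, n = 3 each). Of 14 markers of resident alveolar macrophages all 14 were detected and tested. They summed to 3180, 3180 and 2670 FPKM in WT and to 2660, 4920 and 4730 FPKM in KO, with overlap. Of the 14, 13 had a log2 difference above 0, with a median of 0.40. An unadjusted p under 0.05 in edgeR was seen for 0 of them, against 6.96% of all tested genes. Neutrophil markers summed to between 503 and 5370 FPKM and were highest in WT 2 and KO 2. These are bulk samples, in which fewer cells of a type and less RNA per cell cannot be told apart.

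A PH domain is a small fold that docks a protein on membranes by gripping the head groups of phosphoinositides, the phosphorylated inositol lipids that PI 3-kinases, PI 4-kinases and their phosphatases make and remove. Plekha1 and Plekha2 (TAPP1 and TAPP2) bind PI(3,4)P2, a product of PIP3 breakdown that also recruits Akt. Plekha3 and Plekha8 (FAPP1 and FAPP2) bind PI4P on the trans-Golgi network, and Plekha8 carries glucosylceramide between membranes as well. Plekha4 has been tied to Wnt signalling through Dishevelled turnover. Plekha5, Plekha6 and Plekha7 carry WW domains and, in epithelial cells, bind the small PDZ protein Pdzd11 at cell junctions, where Plekha7 also binds p120 catenin.

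All 8 proteins, translated from the longest complete GENCODE M21 coding sequence of each gene, held the same short block in the PH domain: a tryptophan, any 2 residues, an arginine, an aromatic residue and a phenylalanine. The 54 coding bases around it are printed because this block is what the members share and the rule did not use. Each run is spliced coding sequence of the gene's own strand, 5′ to 3′, with the codons of the block in capitals.
Plekha1: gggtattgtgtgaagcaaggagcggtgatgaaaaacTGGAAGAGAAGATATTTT
Plekha2: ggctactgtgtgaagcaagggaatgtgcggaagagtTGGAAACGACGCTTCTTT
Plekha3: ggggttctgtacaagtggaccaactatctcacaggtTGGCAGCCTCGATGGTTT
Plekha8: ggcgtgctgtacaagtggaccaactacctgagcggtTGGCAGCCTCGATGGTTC
Plekha4: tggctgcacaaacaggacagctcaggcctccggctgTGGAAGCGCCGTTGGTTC
Plekha5: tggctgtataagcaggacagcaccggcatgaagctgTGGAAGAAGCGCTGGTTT
Plekha7: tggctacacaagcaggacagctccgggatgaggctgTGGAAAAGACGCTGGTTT
Plekha6: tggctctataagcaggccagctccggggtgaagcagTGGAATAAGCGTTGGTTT

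In Plekha6 these bases code for residues 65 to 82 of 1173 and lie, with an intron between them, at chr1:133263887-133264699 on the plus strand of GRCm38. The last 2 codons of the block read the same in Plekha6, Plekha5, Plekha7 and Plekha3, and the aromatic residue before the phenylalanine is a tryptophan in all but Plekha1 and Plekha2. In Plekha3 and Plekha8 the printed bases code for residues 3 to 20, near the start of the protein. The longest local alignments of Plekha6 were to the long WW-type members, with 37.9% identity to Plekha5 over 1050 aligned residues and 36.3% to Plekha7 over 1056. Both began at residue 1 of Plekha6, but at residue 110 of Plekha5 and 106 of Plekha7. Whether the Plekha6 sequence used here holds the WW domains was not examined. Plekha4 matched Plekha6 at 36.2% over 566 residues, Plekha1 at 36.6% over 131 and Plekha2 at 33.3% over 183. Against Plekha3 and Plekha8 the match covered only 87 residues, at 31.0% and 29.9%. Within the other branches, Plekha1 and Plekha2 were 55.5% identical over 346 residues, and Plekha3 and Plekha8 were 63.5% identical over 203.

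On the per-length scale of the deposited FPKM (reads scaled by gene length and library total), the family spanned more than 2 orders of magnitude in these cells. Plekha2 was the most abundant member, at 26.8 ± 2.16 FPKM in WT and 25.8 ± 3.23 FPKM in KO (SD, n = 3 each), which is above 87.5% of tested genes in WT. Plekha3 came next, at 14.6 ± 2.46 and 15.7 ± 1.14 FPKM. Plekha5 and Plekha1 lay near 3 FPKM, Plekha8 below 1 FPKM, and Plekha7 and Plekha4 near 0.2 FPKM. Plekha6 ranked 6 of 8 in WT, above 7.12% of tested genes, and 5 of 8 in KO, above 33.1%, trading places with Plekha8. Plekha1 and Plekha5 also traded ranks 3 and 4 between the genotypes.

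**Figure D1:**
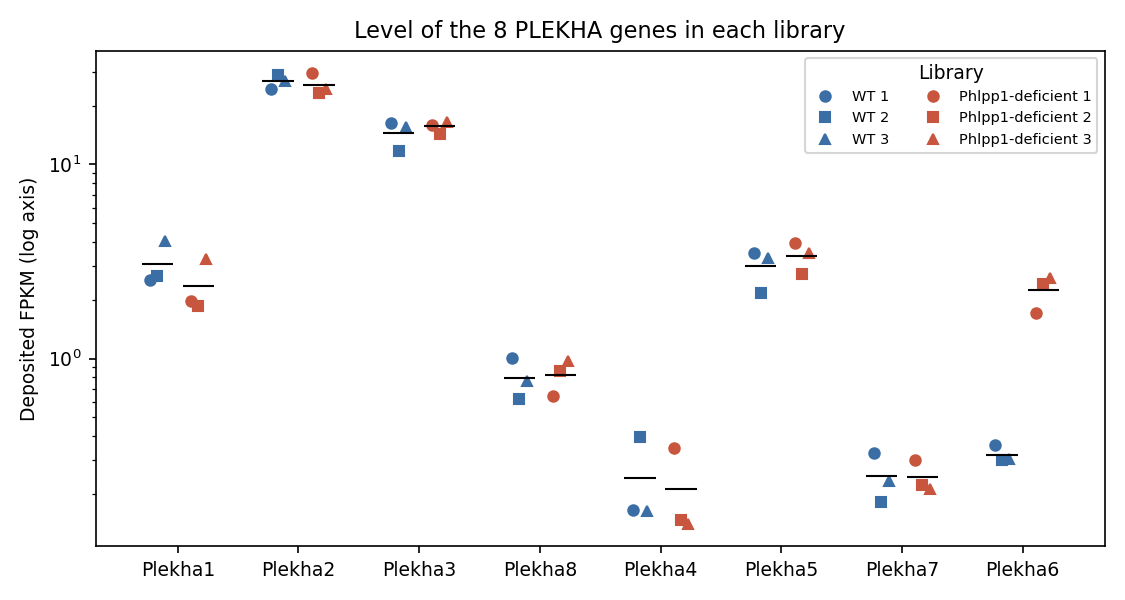
Deposited FPKM (log axis) of the 8 PLEKHA genes in each of the 6 libraries, with WT in blue, Phlpp1-deficient in red, 1 marker shape per replicate number and a black line at each group mean. Plekha6 is the 1 member whose groups separate, from 0.299 to 0.357 FPKM in WT and from 1.72 to 2.6 FPKM in Phlpp1-deficient libraries.

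Neighbours in the order of mean FPKM were compared within libraries by an exact two-sided sign-flip permutation test over the 6 libraries, whose smallest possible p is 0.03125. Plekha2 exceeded Plekha3, Plekha3 exceeded Plekha5, and Plekha8 exceeded Plekha7 in 6 of 6 libraries, each with an exact p = 0.03125 and an adjusted p = 0.0729 over 7 pairs. Plekha5 and Plekha1 overlapped, with Plekha5 higher in 4 of 6 libraries (exact permutation p = 0.3125), as did Plekha7 and Plekha4 (4 of 6, exact permutation p = 0.53125). No pair passed after adjustment, and with 6 libraries a pair alone could not have passed. On the deposited FPKM, Plekha6 lay below Plekha8 in all 3 WT libraries and above it in all 3 KO libraries.

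The length behind these FPKM values matters to this order. The deposited values imply 19445 bases for Plekha6, 14820 for Plekha1 and 18376 for Plekha7, longer than all GENCODE M21 exons of these genes laid together (12530, 8527 and 12933 bases). The implied length was also longer for Plekha2 (7843 against 5579), Plekha5 (12421 against 9356), Plekha8 (7255 against 7005) and Plekha3 (3170 against 3126). It was shorter only for Plekha4 (5311 against 6371). With the longest annotated coding transcript in place of that length, an alternative chosen after the data were seen, Plekha1 moved above Plekha5 (a mean of 10.7 against 5.36 FPKM recomputed with that length). Plekha6 then stood at 0.842 recomputed FPKM in WT and 5.91 in KO, ranks 6 and 4. Its order against Plekha8 in WT also depended on the length. With the longest coding transcript, Plekha6 was above Plekha8 in WT 2 (0.788 against 0.665) and below it in WT 1 and WT 3.

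Plekha6 (ENSMUSG00000041757, GRCm38 chromosome 1, 133164210 to 133303435, plus strand) had 110, 78 and 88 reads in WT 1, 2 and 3, and 454, 663 and 674 reads in KO 1, 2 and 3. Scaled, this was 6.62, 6.35 and 5.77 CPM in WT and 32.5, 48.7 and 49.7 CPM in KO. The WT libraries were close to each other, the KO libraries all lay far above them, and KO 1 was the lowest of the 3. The fitted log2 difference was 2.80 (SE 0.21, 95% interval 2.31 to 3.29), a 6.97-fold higher level in Phlpp1-deficient cells. A larger positive difference was found for 27 of the 14037 tested genes. The difference was not past the threshold without WT 3 or with the replicate number as a block (2.78 in both), and it was 1.29 on the log2(FPKM + 1) scale. No other gene matched a Plekha6 transcript at 95% identity over 150 bases or more, the longest such match outside overlapping genes being 33 bases. The antisense gene Gm19461 overlaps Plekha6 and had 1 read in all 6 libraries together. Plekha1, Plekha2 and Plekha4 also overlap genes on the opposite strand, and without a stated strand setting such reads cannot be told apart.

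**Figure D2:**
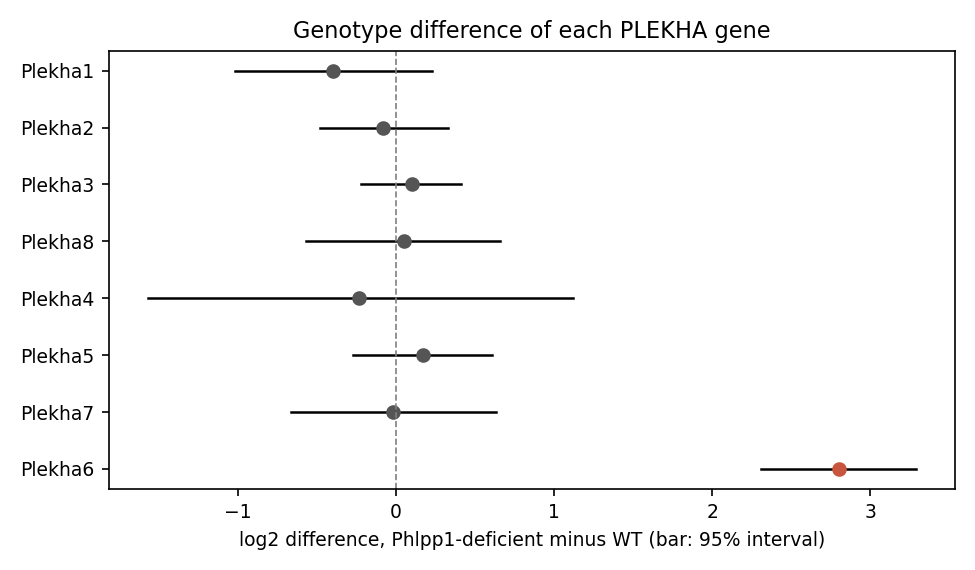
log2 difference between Phlpp1-deficient and WT libraries for each PLEKHA gene (point) with its 95% interval from the fit across all genes (bar), n = 3 libraries per genotype. The intervals of the 7 paralogs include 0, and that of Plekha6 runs from 2.31 to 3.29.

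Of the 8 members, Plekha6 alone passed the threshold of the fit, against 0.0997% of all tested genes, and it alone had groups that did not overlap, against 11.1% of all tested genes. Since this contrast chose the family, nothing is read from those counts. The 7 paralogs lay between -0.40 and 0.17 on the log2 scale, 3 above 0 and 4 below, with a median of -0.02, which equals the median of all tested genes. None of the 7 passed with edgeR, DESeq2 or limma-voom, which over all genes called 14 of 14037, 199 of 14027 and 23 of 14037. None had an unadjusted p under 0.05 in the edgeR test, against 6.96% of all tested genes.

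The PI(3,4)P2-binding pair was steady in the larger member and variable in the smaller. Plekha2 (chromosome 8, 25039144 to 25102376, minus strand) was at 183, 247 and 207 CPM in WT and 225, 190 and 189 CPM in KO. These values interleave, and the log2 difference was -0.08 (SE 0.17, 95% interval -0.48 to 0.33). Plekha1 (chromosome 7, 130865756 to 130913312, plus strand) was at 36, 42.9 and 58.4 CPM in WT and 28.7, 28.4 and 47.2 CPM in KO. Replicate 3 was the highest library of each genotype and the groups overlapped, since KO 3 exceeded both WT 1 and WT 2. The log2 difference of Plekha1 was -0.40 (SE 0.27, 95% interval -1.02 to 0.23), the lowest of the family, and it ran from -0.66 without KO 3 to -0.15 without WT 3. The neutrophil marker sum was 1170 FPKM in WT 3 and 627 FPKM in KO 3, against 5370, 2690 and 4220 FPKM in WT 2, KO 1 and KO 2. WT 1 had the lowest sum, 503 FPKM, without a high Plekha1 level, and the part of neutrophils in the level of Plekha1 was not tested.

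Of the Golgi pair, Plekha3 was the steadiest member. Plekha3 (chromosome 2, 76675281 to 76696828, plus strand) had 49.5, 40.7 and 48.4 CPM in WT and 49.5, 47.1 and 51.6 CPM in KO, a log2 difference of 0.10 (SE 0.13, 95% interval -0.22 to 0.41). Its spread within a genotype was 0.12 on the log2 scale, against 0.18 to 0.71 for the other 7 members. Plekha8 (chromosome 6, 54595111 to 54645839, plus strand) had 6.98, 4.89 and 5.45 CPM in WT and 4.52, 6.46 and 6.93 CPM in KO. The groups overlapped throughout, with a log2 difference of 0.05 (SE 0.26, 95% interval -0.57 to 0.66). Plekha8 shares 291 identical bases with Gm14822 and overlaps Fkbp14 on the opposite strand, so its reads are less certain than those of Plekha6. Matches of 173 bases (Plekha3 with Snf8) and 193 bases (Plekha5 with Polr1b) were the only others over 150 bases.

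Plekha5, Plekha7 and Plekha4, the members with the longest alignments to Plekha6, had intervals that included 0. Plekha5 (chromosome 6, 140424054 to 140597110, plus strand) had 41.2, 29.5 and 40.4 CPM in WT and 47.5, 35.1 and 42.6 CPM in KO. Replicate 2 was the lowest library of both genotypes, and the log2 difference was 0.17 (SE 0.19, 95% interval -0.27 to 0.61). Plekha7 (chromosome 7, 116123485 to 116308376, minus strand) had 5.72, 3.67 and 4.2 CPM in WT and 5.38, 4.26 and 3.83 CPM in KO. Its log2 difference was -0.02 (SE 0.28, 95% interval -0.66 to 0.63), so a change of the size seen in Plekha6 lies outside the interval. Plekha4 (chromosome 7, 45526330 to 45554229, plus strand) rested on 10 to 28 reads per library, at 0.842, 2.28 and 0.853 CPM in WT and 1.79, 0.808 and 0.737 CPM in KO. WT 2 and KO 1 stood above the other 4 libraries, and the interval of the log2 difference was wide, -1.57 to 1.12.

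The FPKM ratio of Plekha6 to Plekha5 was 0.103, 0.138 and 0.0914 in WT and 0.437, 0.886 and 0.745 in KO. Its ratio to Plekha7 was 1.09, 1.64 and 1.3 in WT and 5.72, 10.8 and 12.2 in KO. These ratios depend on the length. With the longest coding transcript, Plekha6 exceeded Plekha5 in KO 2 (6.38 against 4.6 recomputed FPKM) and KO 3 (6.84 against 5.87). It stayed below Plekha5 in KO 1 (4.52 against 6.61) and in every WT library. The 7 paralogs summed to 46.6 to 51.0 FPKM in WT and 43.6 to 52.7 FPKM in KO. Plekha6 made up 0.654% ± 0.0716 of the summed family FPKM in WT and 4.48% ± 1.15 in KO (SD, n = 3 each). Without a length, from counts, these shares were 1.75% and 11.5%, and with the longest coding transcript 1.07% and 7.31%.

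Markers of lung epithelium were detected in the lavage. The 20 markers, all tested and none at 0 in all libraries, summed to 443, 372 and 432 FPKM in WT and to 593, 1650 and 671 FPKM in KO. All 3 KO sums lay above all 3 WT sums, as for Plekha6, but summed as CPM they did not separate, with 626 in WT 1 and 625 in KO 1. Of the 20, 16 had a log2 difference above 0, with a median of 0.34. None passed with edgeR or limma-voom, which called 14 and 23 of all 14037 tested genes. In edgeR, 4 had an unadjusted p under 0.05 (20.0%, against 6.96% of all tested genes). DESeq2, which called 199 of 14027 genes, called 3 of the 20, Scgb1a1, Scgb3a1 and Scgb3a2. Much of the FPKM sum was the club cell gene Scgb1a1, with a mean of 222 FPKM in WT and 670 FPKM in KO. KO 2 had the highest epithelial sum, and Plekha6 was at 48.7 CPM in KO 2 and 49.7 CPM in KO 3. The junction cadherin Cdh1, expressed by epithelium and also by alveolar macrophages, was at 133 ± 28.0 CPM in WT and 154 ± 10.8 CPM in KO (SD, n = 3 each). Eosinophil, mast cell and basophil markers, of which 3 of 8 were tested, summed to 2.35, 13.8 and 6.47 FPKM in WT and 18, 60.8 and 17 FPKM in KO, without overlap, while their CPM sums overlapped (26.9 in WT 2, 23 in KO 3). The sums for B cell markers were 114, 38.3 and 46.6 FPKM in WT and 396, 98.5 and 136 FPKM in KO, with KO 2 below WT 1. All 10 B cell markers had a log2 difference above 0, with a median of 1.57, and 6 of 10 had an unadjusted p under 0.05 in edgeR (60%), while none passed with edgeR, DESeq2 or limma-voom. Markers of monocytes and monocyte-derived macrophages ran the other way, with 10 of 12 below 0, a median of -0.68 and 6 at an unadjusted p under 0.05 in the edgeR test (50%). None of these passed with edgeR, and DESeq2 called 2, Ccr2 and Cx3cr1. An unadjusted p under 0.05 in edgeR was also seen for 3 of 4 tested endothelial markers, 3 of 12 for T and NK cells and 2 of 7 for dendritic cells. It was seen for 0 of 3 fibroblast markers, which summed to 10.4 FPKM in WT 1 and 0.325 to 1.22 FPKM in the other libraries. None of these passed with edgeR, DESeq2 or limma-voom. The part of all these cells in the level of Plekha6 was not tested.

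Profiles were compared with that of Plekha6 over the 6 libraries by the root mean square difference of log2(CPM + 0.1), each gene centred on its own mean, among 10847 genes at a mean of at least 5 CPM. Agpat4, an acyltransferase of lysophosphatidic acid on chromosome 17, was the nearest at 0.17, with 4.33, 4.15 and 4.92 CPM in WT and 24.9, 42.1 and 42.1 CPM in KO. Like Plekha6 it was lowest in KO 1 among the KO libraries. Next were the pseudogene 5830417I10Rik (0.35), the F-box gene Fbxo17 (0.43), the transcription factor gene Ets1 (0.55) and Rgs1 (0.57), a regulator of G protein signalling. The first 4 of these 5 genes passed the genotype threshold, as Plekha6 did, so the likeness is largely that of the genotype difference. With log2(FPKM + 1), which shrinks low genes, only 1 of the 5 stayed among the first 5.

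**Figure D3:**
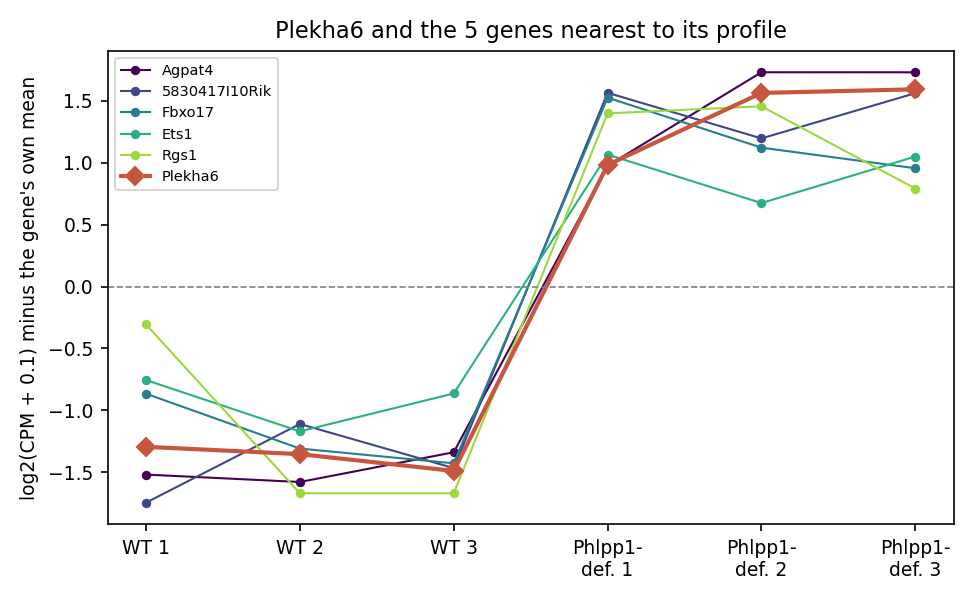
log2(CPM + 0.1) of Plekha6 (red) and of the 5 genes with the nearest profile, each minus its own mean over the 6 libraries, plotted by library. All 6 genes lie below their mean in the WT libraries and above it in the Phlpp1-deficient (def.) libraries, and Agpat4 follows Plekha6 to within 0.17 (root mean square).

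Plekha6 lies 26.8 Mb from the end of Phlpp1 on the same chromosome. Of its 52 annotated neighbours within 1 Mb, 24 were tested and none passed with edgeR, while 5 had an unadjusted p under 0.05 (20.8%, against 6.96% of all tested genes). DESeq2 called 2 of the 24, Ren1 and Sox13, and limma-voom 1. Over all genes, edgeR called 14 of 14037, DESeq2 199 of 14027 and limma-voom 23 of 14037. Groups did not overlap in 4 of the 24 (16.7%), against 11.1% of all tested genes in either direction. All 4 were higher in KO, a direction seen in 4.57% of all tested genes. The median log2 difference of the 24 was 0.19, against -0.02 for all tested genes. Within 250 kb, 7 genes were tested, with a median of 0.98 and 3 at an unadjusted p under 0.05 in edgeR. Groups did not overlap in 2 of these 7 (28.6%), both higher in KO.

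Ren1, the renin gene, starts 47.1 kb beyond the end of Plekha6 (chromosome 1, 133350510 to 133360325, plus strand). It had 0 reads in all 3 WT libraries and 41, 30 and 25 reads in KO 1, 2 and 3. Against a floor of 3 counts over the WT group this is at least 34.3-fold higher, a bound that covers counting error only, and its edgeR adjusted p was 0.0665. Some mouse strains carry a further renin gene, Ren2, that is nearly identical and is not in the reference genome, so reads given to Ren1 are uncertain.

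Sox13, a transcription factor gene 78.9 kb away on the minus strand, was at 15.5, 8.72 and 11.4 CPM in WT and 37.5, 40.7 and 17.4 CPM in KO. All KO values exceeded all WT values, with KO 3 only just above WT 1 (log2 difference 1.42, SE 0.36, edgeR adjusted p = 0.425). Pik3c2b, a class II PI 3-kinase gene 55.5 kb before Plekha6, was at 9.45, 6.43 and 5.77 CPM in WT and 32.3, 7.56 and 14.4 CPM in KO. KO 1 set most of its log2 difference of 1.32 (SE 0.51, edgeR adjusted p = 0.651), and KO 2 lay below WT 1. KO 1 also had the highest B cell marker sum, 396 FPKM, and the part of B cells in the level of Pik3c2b was not tested.

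Of the genes before Plekha6, Ppp1r15b and Mdm4 had overlapping groups. Ppp1r15b, a regulatory subunit that recruits phosphatase to eIF2 alpha, ends 24.4 kb before it and was at 256 ± 38.2 CPM in WT and 245 ± 20.3 CPM in KO (SD, n = 3 each; log2 difference -0.07, SE 0.17). Mdm4, the p53 inhibitor, was at 159 ± 41.9 and 192 ± 52.0 CPM (log2 difference 0.27, SE 0.26). Golt1a, the next gene after Plekha6 at 6.4 kb, had 0 to 2 reads per library and was not tested. Within 250 kb, Lrrn2 (4 to 30 reads) and Gm26616 (1 to 23 reads) were also tested, with log2 differences of 0.98 (SE 0.55) and -0.50 (SE 1.17). Etnk2, Gm28040, Gm28609 and Gm38308 had 8 reads or fewer in every library. Farther out, Cntn2, a cell adhesion gene, had 0 reads in WT and 13, 5 and 6 reads in KO, at least 8.58-fold higher against 3 counts over the group, and it was too low to be tested.

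**Figure D4:**
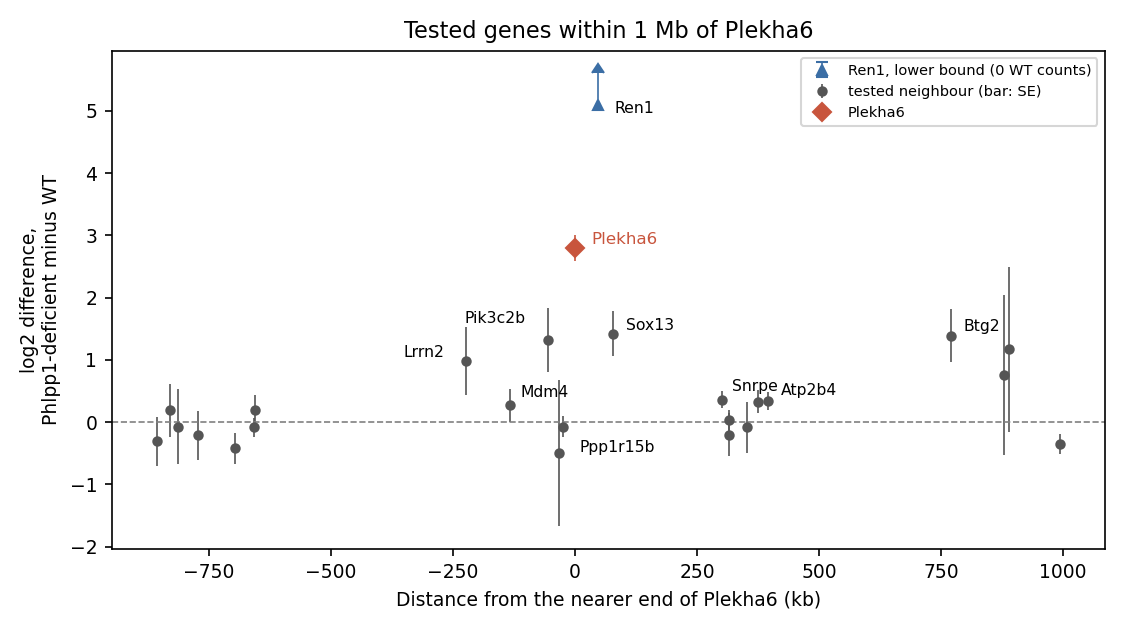
log2 difference between Phlpp1-deficient and WT libraries of the tested genes within 1 Mb of Plekha6, by distance from its nearer end in kb, with bars for the SE. Plekha6 (red) is at 2.80, Ren1 (blue, arrow up) is drawn at its lower bound of 34.3-fold, Sox13 and Pik3c2b lie at 1.42 and 1.32, and Ppp1r15b and Mdm4 lie close to 0.

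The lipids that these proteins read are made and removed by enzymes. In 7 lists of pathway and partner genes, chosen with earlier results of these data known, 110 of 114 genes were tested. None passed with edgeR, DESeq2 or limma-voom, which over all genes called 14 of 14037 (0.0997%), 199 of 14027 and 23 of 14037. At such shares, nothing is read from the count of 0. An unadjusted p under 0.05 was seen in 9 of the 110 (8.18%, against 6.96% of all tested genes) in the edgeR test. Groups did not overlap in 12 of the 110 (10.9%), 5 higher and 7 lower in KO, close to the background of 11.1%. By list, this share ran from 0% for the Golgi PI4P genes to 21.4% for the partners of Plekha5, Plekha6 and Plekha7. The list medians lay between -0.13 and 0.04 on the log2 scale.

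Of the 13 tested PI 3-kinase genes, 3 lay above 0 and 1 of them, Pik3c2b, had an unadjusted p under 0.05. The leukocyte catalytic subunit Pik3cd was at 28.0 FPKM in WT and 26.4 FPKM in KO (log2 difference -0.11, SE 0.26), and the regulatory subunit Pik3r5 at 47.2 and 45.3 FPKM (log2 difference -0.08, SE 0.17). Pik3r6, another regulatory subunit of the gamma kinase, had 52.9 ± 3.20 and 44.7 ± 3.26 CPM (SD, n = 3 each), with all KO values below all WT values. Among 13 tested phosphatases of these lipids, Inpp5d (SHIP1), which turns PIP3 into PI(3,4)P2, was at 38.7 and 35.7 FPKM (log2 difference -0.15, SE 0.25). Inpp5e, a phosphatase of the same lipids, had 25.8 ± 3.21 CPM in WT and 33.4 ± 2.33 CPM in KO (SD, n = 3 each), a shift of 0.38 in log2 (SE 0.15, edgeR adjusted p = 0.67). Synj1 had 136 ± 22.8 and 115 ± 13.9 CPM.

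The Golgi PI4P list had 0 of 14 tested genes at an unadjusted p under 0.05 in edgeR and no gene whose groups separated. Arf1, the GTPase that joins PI4P in recruiting Plekha3 and Plekha8, was at 125 and 126 FPKM, and the glycolipid transfer gene Gltp at 57.9 and 58.8 FPKM, in WT and KO. The kinase Pi4kb had 55.4 ± 1.74 and 50.5 ± 7.45 CPM and the oxysterol-binding relative Osbpl11 78.3 ± 8.03 and 63.3 ± 15.8 CPM (SD, n = 3 each).

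Among 24 tested PH-domain readers of PIP3 outside the family, groups did not overlap in 3 (12.5%, against 11.1% of all tested genes in either direction). All 3 were lower in KO, a direction seen in 917 of the 14037 tested genes. Adap2, an ArfGAP adaptor, had 36.8, 46.3 and 53.2 CPM in WT and 21.4, 31.9 and 29.0 CPM in KO (log2 difference -0.73, SE 0.21, edgeR adjusted p = 0.476). Phlda3, a PH-only protein known to compete with Akt for membrane lipid, had 45.2, 25.9 and 33.9 CPM in WT and 18.0, 21.7 and 23.4 CPM in KO (log2 difference -0.74, SE 0.23, edgeR adjusted p = 0.512). Akt1 was at 57.5 FPKM in WT and 56.7 FPKM in KO, and the Arf exchange factor Cyth4 at 187 and 167 FPKM. Of 21 tested PLEKH genes of other letters, groups separated in 2, Plekhf1 and Plekhg5 (9.52%, against 11.1% of all tested genes in either direction). Both were higher in KO, a direction seen in 4.57% of all tested genes. Plekhf1, an endosomal PH and FYVE protein, had 8.8 ± 1.2 and 12.6 ± 1.38 CPM (log2 difference 0.51, SE 0.19, edgeR adjusted p = 0.603) and Plekhg5 5.29 ± 0.793 and 7.04 ± 0.918 CPM (SD, n = 3 each). Plekho2 was the most abundant of them, at 105 FPKM in WT and 80.4 FPKM in KO, followed by Plekhj1 at 30.3 and 23.7 FPKM.

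Of 14 tested partners of Plekha5, Plekha6 and Plekha7, 5 lay above 0, with a median log2 difference of -0.13. Groups did not overlap in 3 of the 14 (21.4%, against 11.1% of all tested genes), 1 higher and 2 lower in KO. Kifc3, a minus-end kinesin that reaches junctions through Plekha7 in epithelial cells, had 26.4, 18.3 and 31.3 CPM in WT and 14.9, 14.2 and 16.1 CPM in KO (log2 difference -0.75, SE 0.21, edgeR adjusted p = 0.476). The junction protein gene Cgnl1 had 10.1 ± 0.890 and 6.52 ± 1.98 CPM (SD, n = 3 each), also with every KO value below every WT value. Adam10, a sheddase, was at 37.0 and 46.7 FPKM in WT and KO, with overlapping groups. Of 11 tested partners of Plekha1, Plekha2 and Plekha4, groups did not overlap in 2 (18.2%, against 11.1% of all tested genes), 1 higher and 1 lower in KO. The syntrophin gene Sntb2 had 50.9, 119 and 59.1 CPM in WT and 39.0, 41.2 and 36.6 CPM in KO (log2 difference -0.97, SE 0.32, edgeR adjusted p = 0.548). The phosphatase gene Ptpn3 had 13.2, 8.47 and 10.2 CPM in WT and 14.6, 16.9 and 17.4 CPM in KO (log2 difference 0.61, SE 0.20, edgeR adjusted p = 0.551). The ubiquitin ligase scaffold Cul3 was level, at 23.8 and 22.9 FPKM.

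**Figure D5:**
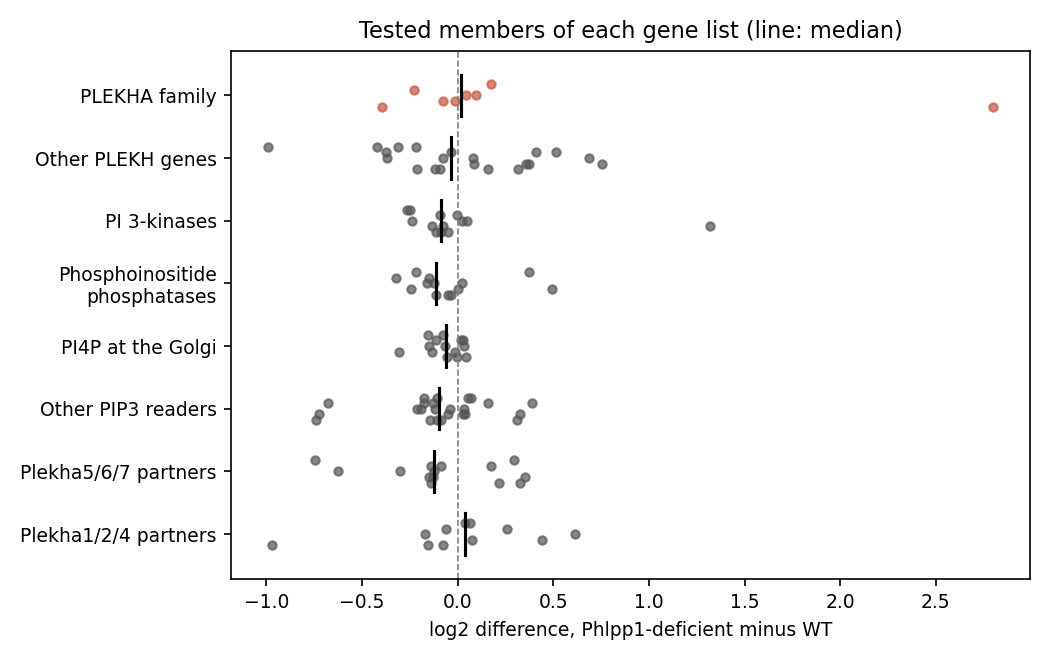
log2 difference between Phlpp1-deficient and WT libraries of the tested genes of the PLEKHA family (red) and of 7 lists of pathway and partner genes (grey), with a line at each list's median. Plekha6 is the point at 2.80 and Pik3c2b the point at 1.32, while the list medians lie between -0.13 and 0.04.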

How the data were processed

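Messenger RNA sequencing of 6 libraries, 3 WT and 3 Phlpp1-deficient, was analysed from 1 table deposited by the authors. Per the file headers, it holds counts of reads beside FPKM for 34745 genes. Per the submitters' processing notes the tools were edgeR, HISAT2 and StringTie 1.3.0 and the build mm10, with no role given. The annotation and strand setting are not given in the sources used here. Dividing each member's counts by its deposited FPKM and by library size gave 1 length per gene, constant over libraries to within 0.00371%. Symbols and coordinates (1-based) come from GENCODE M21 (GRCm38), which named 34344 genes and left 401 unnamed. Coding sequences were taken from its transcripts and aligned with BLOSUM62.

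The counts were fitted with edgeR 4.0.16 in R 4.3.3 (filterByExpr with a minimum count of 10, TMM, glmQLFit with robust=TRUE, glmQLFTest), without covariates, and genes were called below a Benjamini-Hochberg adjusted p of 0.05, over 14037 genes. This called 14 genes, 7 in each direction. CPM are counts scaled to the TMM library size, SE is the log2 difference over the square root of F, and the fit was tested on simulated data. Alternatives used DESeq2 1.42.0, limma 3.58.1 (voom, and log2(FPKM + 1)), other scalings and filters, a replicate block and leaving out each library. No pair of replicates was as close as counting noise allows (chi-square per gene at least 34.4). The labels do not say that libraries are separate animals, so the p-values rest on library-to-library spread only, possibly technical. The precision of low genes is limited by their reads.

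The members, the gene lists and the tests were chosen with earlier results of these data known. Named genes are the 8 members, Phlpp1, genes overlapping or tested within 250 kb of Plekha6, the 5 nearest profiles, and in each list those that passed, the 2 most abundant and the 2 with the smallest p. Other neighbours, Scgb1a1, genes sharing sequence with or overlapping a member and untested neighbours were named after their values were seen. Marker lists are given as sums, so most marker genes taken by the rule are not named. A gene taken by the rule in the phosphatase list is not reported here.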

Additional observations from a re-analysis of the deposited data

How the results depend on the processing

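The number of genes called was 14, and it was 36 without a filter on low counts, 199 with DESeq2, 23 with limma-voom, 23 with limma on log2(FPKM + 1), 1 with the replicate number as a block, and 1 to 32 when a library was left out (1 without WT library 3, 4, 7 and 32 without KO libraries 1, 2 and 3). The log2 difference of Plekha6 ran from 2.71 to 2.97 when a library was left out; since this difference chose the family, these values describe it and are no support. It did not pass with the replicate block, where the difference was 2.78, or without WT library 3, where it was also 2.78. It was 1.29 on the log2(FPKM + 1) scale, which by construction shrinks low genes. Deviations of same-numbered libraries from their group means correlated at -0.125, 0.334 and 0.295. Differently numbered libraries were not compared, so these values do not settle whether the replicate numbers pair the libraries. The differences of the 7 paralogs moved by less than the spread within a genotype in all 14 alternatives. The share of Plekha6 in the family, 0.654% in WT and 4.48% in KO, was 1.75% and 11.5% from counts without a length and 1.07% and 7.31% with the longest coding transcript, and it ran from 0.614 to 0.685% and from 4.09 to 5.14% without single libraries. At 10 to 28 reads per library, Plekha4 gives no direction: its log2 difference ran from -0.75 to 0.41 when a library was left out.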

Other observations

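Between 1 and 5 Mb from Plekha6, a span chosen after the values were seen, 68 genes were tested and groups did not overlap in 19 (27.9%), 10 higher and 9 lower in Phlpp1-deficient libraries. An unadjusted p under 0.05 in the edgeR test was found for 16 of the 68 (23.5%, against 6.96% of all tested genes). None of the 68 passed after adjustment, as 14 of all 14037 genes did. DESeq2 called 4 of the 68 and limma-voom 1, against 199 of 14027 and 23 of 14037 over all genes. Over the rest of chromosome 1, groups did not overlap in 72 of 763 tested genes (9.44%), and over all tested genes in 11.1%. These counts are given as a description and were not tested.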
